A study of Mus musculus with 4 samples.

Results

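Of the 4 libraries measured, 2 are compared here: the library labelled residual from the B16 melanoma model, set against the library labelled residual from the CT-26 colon carcinoma model. They were taken by their labels and by the raw count column that carries them in the table of each model, joined by Ensembl identifier over 53801 genes, and rescaled together with and without the haemoglobin genes. RNA was sequenced from mouse blood mononuclear cells separated with MHC multimers, which are labelled complexes of a peptide and an MHC molecule that bind T cells through their receptor. They are called B16 residual and CT-26 residual below. The other 2 libraries hold the multimer-binding circulating tumor-reactive lymphocytes (CTRL) of each model, B16 CTRL and CT-26 CTRL, and are used here only to show whether a difference between models was also present in that pair. Every group is labelled as wild-type primary CD8+ lymphocytes, with multimer-binding as the treatment, the residual libraries included. The labels give neither the mouse strain, age or sex, nor how many animals were pooled, nor which cells the word residual covers. B16 is a line of C57BL/6 origin and CT-26 one of BALB/c origin, and the models are taken to differ in mouse strain as well as in tumour. Tumour model, strain and single library therefore cannot be told apart in any ratio below.

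Blood mononuclear fractions hold lymphocytes and monocytes, and commonly carry some red cells, platelets and granulocytes as well. Maturing red cells fill with alpha and beta globin messenger RNA and with the enzymes of haem synthesis, and keep these transcripts as reticulocytes after the nucleus is lost. Platelets carry messenger RNA inherited from megakaryocytes. In bulk RNA, a large transcript class of one cell type takes reads from all other genes, which is why the scale has to be fixed with care in a comparison of this kind.

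The largest transcript class in both residual libraries was haemoglobin, and the promoters of 3 of its genes and of Alas2, the red cell form of the first enzyme of haem synthesis, are shown because haemoglobin reads made the largest difference in composition between the libraries. Each is the stretch of 150 bases before the annotated start, from RefSeq on GRCm38.p6, read 5′ to 3′ on the strand of the gene. Capitals mark 4 motifs wherever they occur on either strand, so that a reverse complement also counts. The CACCC box is known to be bound by Klf1 in red cell precursors. The CCAAT box is a common promoter motif bound by factors such as NF-Y. The third motif was GATAA, which contains the core that Gata1 binds, and the last was the TATA box in its form ATATAA, which positions the start of transcription.
Hbb-bs (chr7:103827929-103828078, minus strand): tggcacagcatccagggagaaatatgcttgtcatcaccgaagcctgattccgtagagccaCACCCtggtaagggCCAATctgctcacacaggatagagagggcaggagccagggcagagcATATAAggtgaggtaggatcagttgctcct
Hbb-bt (chr7:103813924-103814073, minus strand): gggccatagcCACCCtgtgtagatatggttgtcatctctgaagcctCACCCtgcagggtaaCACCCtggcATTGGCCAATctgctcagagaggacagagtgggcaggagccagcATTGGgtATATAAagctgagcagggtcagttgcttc
Hba-a1 (chr11:32283522-32283671, plus strand): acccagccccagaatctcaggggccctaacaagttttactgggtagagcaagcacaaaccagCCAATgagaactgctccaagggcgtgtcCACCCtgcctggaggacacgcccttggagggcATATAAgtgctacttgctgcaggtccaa
Alas2 (chrX:150547267-150547416, plus strand): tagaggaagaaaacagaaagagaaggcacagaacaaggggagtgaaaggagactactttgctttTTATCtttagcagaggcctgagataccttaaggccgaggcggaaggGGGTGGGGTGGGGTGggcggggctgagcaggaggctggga
The 3 globin promoters each held the first, the second and the TATA motif, with the last of these 28 to 30 bases before the start. Alas2 held 3 matches to the CACCC box on the minus strand, which overlap none of the other motifs, and 1 match to the Gata1 motif. Of 32851 mouse promoters of the same length, 37.4% held the CACCC box, 24.5% the CCAAT box, 13.3% the Gata1 motif and 5.35% the TATA motif. A match is a run of letters and not a bound site.

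Depth was 39068457 reads in genes for B16 residual and 50823018 for CT-26 residual, and 37166063 and 74879891 for B16 CTRL and CT-26 CTRL. Genes with names starting Hba- or Hbb- held 42.0% of the reads of B16 residual and 10.8% of those of CT-26 residual, which left 22660409 and 45329358 reads for all other genes. Levels below are CPM (reads per 1000000) of those other reads, also for the globins themselves, and a log2 ratio is B16 residual over CT-26 residual after adding 0.1 CPM to each. With 1 library a side there is no replicate, no test and no p-value for this pair. Ranges in brackets after a value are exact 95% intervals. They hold counting error and nothing else, because amplified reads that carry no molecular tag can be copies of one another. Genes were called at a size of 2-fold or more (log2 of 1) where the library with more of the gene had at least 10 CPM, a level that stands for 227 reads in B16 residual and 453 in CT-26 residual. A list's median is over all its members with a read, whether or not they reached that level.

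The B16 residual library stood apart from the other 3 in how many genes it touched at a low level. It had at least 1 read in 36955 genes, against 24213 in CT-26 residual, and 16985 of its genes had 1 to 9 reads, against 5880. Olfactory receptor genes, which blood cells do not use, had a read in 1009 of 1407 genes in B16 residual and in 102 in CT-26 residual, or in an expected 74.7 when CT-26 residual was thinned to the depth of B16 residual. The 2 CTRL libraries had reads in 223 and 154 of them. A set of 11 predicted genes named from Gm10800 to Gm21738 held 8631 CPM in B16 residual and 6.29 CPM in CT-26 residual, against 150 CPM and 54.1 CPM in B16 CTRL and CT-26 CTRL. Of 14203 genes read in B16 residual and not in CT-26 residual, 11924 had fewer than 10 reads and 8 reached 10 CPM. These reads lie in the same range as list members below 10 CPM, so a low count in B16 residual need not mark the cell type of a gene, and medians over all members with a read include such counts. The medians of 7 lists change sign when members below 10 CPM are left out. The part of these low-level reads in the other results was not tested.

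The label CD8+ went against the coreceptor genes in both libraries. Cd8a (chromosome 6, 71373427 to 71379173 on mm10) had 65 reads in B16 residual and 446 in CT-26 residual, and Cd8b1, the beta chain, 61 and 1256. Per read of Cd3e, a chain of the T-cell receptor complex, Cd8a had 0.0392 reads (0.0301 to 0.0502) in B16 residual and 0.0502 (0.0455 to 0.0552) in CT-26 residual, whereas B16 CTRL and CT-26 CTRL had 1.17 and 0.982. Cd8a was therefore low against Cd3e in both residual libraries, and the Cd8a intervals of the pair overlap. Cd8b1 did differ: per read of Cd8a it had 0.938 reads (0.651 to 1.35) in B16 residual and 2.82 (2.53 to 3.14) in CT-26 residual. B16 CTRL and CT-26 CTRL had 2.14 and 2.15 in that measure. Cd4 per Cd3e was 0.492 in B16 residual and 0.594 in CT-26 residual. Both libraries also held Lyz2 of monocytes and neutrophils (6786 and 8190 CPM) and Cd79a of B cells (297 and 224 CPM).

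Across genes, 9424 reached the level, and 695 of them (7.37%) were higher in B16 residual and 1500 (15.9%) lower. Their median log2 ratio was -0.34, and lists are read against that value. At 4-fold the order turned, with 282 genes higher and 215 lower. The split rested on the scale. With haemoglobin reads kept in the total, 294 of 8891 genes at the level were higher and 4359 lower. The median ratio of genes at 10 CPM in both libraries was an alternative scale chosen after seeing the data. With it, 1084 of 9398 genes were higher and 717 lower. List counts under either scale have to be read against these totals. Higher calls made up 31.7% of all calls as first counted, 6.32% with haemoglobin kept and 60.2% with the median ratio. These scales moved the ratio of every gene by about -0.62 and 0.31, the median of all genes included, so a member's place relative to that median stayed nearly as it was.

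**Figure D1:**
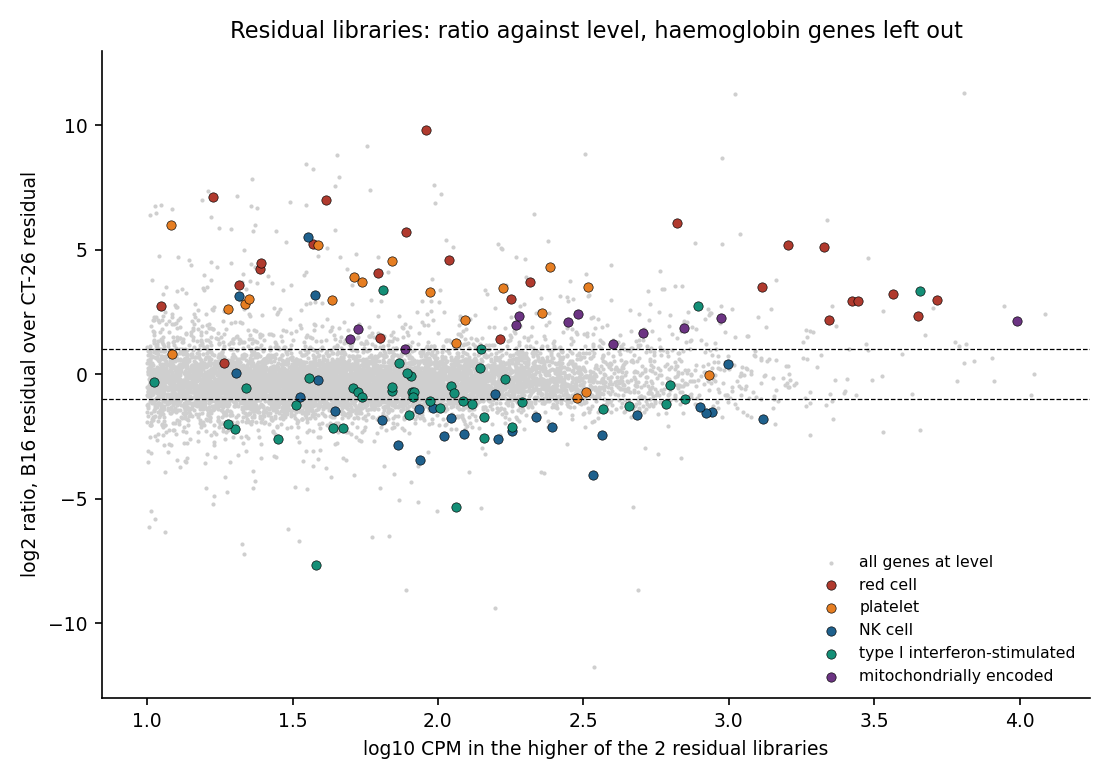
Log2 ratio of B16 residual over CT-26 residual (vertical axis) against the log10 CPM of the higher library (horizontal axis) for the genes with at least 10 CPM, haemoglobin genes left out. Dashed lines mark 2-fold. Red cell, platelet and mitochondrially encoded genes lie mostly above the upper line, while most natural killer (NK) cell genes lie below the lower line, with 3 Klra genes above.

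Haemoglobin and red cell genes were higher in B16 residual than in CT-26 residual. The adult beta globin Hbb-bs (ENSMUSG00000052305, chromosome 7, 103826534 to 103828096) had 7602423 reads in B16 residual and 2774984 in CT-26 residual, or 335494 and 61218 CPM, a log2 ratio of 2.45. Its neighbour Hbb-bt had 1920913 and 355425 reads (3.43), and the adult alpha globins Hba-a1 and Hba-a2 stood at 2.63 and 2.32. In bulk RNA, more cells of a type and more RNA per cell cannot be told apart. The embryonic globins were near 0, with 87 and 12 reads of Hbb-y, 34 and 77 of Hbb-bh1, and 13 and 1 of Hba-x.

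Of 30 listed genes of the red cell membrane and other red cell proteins, 29 had a read and 26 reached the level. Of the 26, 25 were higher in B16 residual and 0 lower, and the median over the 29 was 3.59, against -0.34 over all genes at the level. With haemoglobin reads kept, 21 of 24 were higher and 0 lower, and with the median ratio 25 of 26 and 0. Rhag, a glycoprotein of the Rh complex, had 2058 reads in B16 residual and 0 in CT-26 residual, which is at least 1372-fold higher against a floor of 3 reads. Slc4a1, the anion exchanger band 3, had 36157 and 1996 reads (5.18), and the membrane skeleton genes Sptb, Epb42 and Ank1 lay between 3.72 and 7.01. Rhag and Slc4a1 thus had larger ratios than the 4 adult globins, and red cell genes did not differ by a single factor. Enzymes of the mature cell were among the members with the most reads: Bpgm, which makes 2,3-bisphosphoglycerate, had 117511 and 29468 reads (5186 and 650 CPM), and Car2, a carbonic anhydrase, 48148 and 2756 (5.12). Gypc, a glycophorin, was at 0.44 and not called. The transcription factors were scarce, with 143 and 305 reads of Gata1 and 101 and 10 of Klf1, both below the level.

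Genes of haem synthesis were higher in B16 residual in 8 of 12 genes, with 0 lower and a median of 1.85. The count was 7 higher and 0 lower with haemoglobin reads kept, and 8 and 0 with the median ratio. Alas2 had 201103 reads in B16 residual and 60694 in CT-26 residual (8875 and 1339 CPM, log2 2.73). The mitochondrial iron importer Slc25a37 stood at 2.63 and Urod, uroporphyrinogen decarboxylase, at 3.54. Uros, Ppox, Slc25a38 and Tmem14c were not called, between -0.14 and 0.42. Per haemoglobin read, Alas2 had 0.0123 reads in B16 residual and 0.0110 in CT-26 residual, a ratio of 1.11 in this measure, against a ratio of 6.63 in CPM. Alpha per beta haemoglobin was 0.723 and 0.755.

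The share of the minor beta globin differed beyond counting error. Hbb-bt per Hbb-bs was 0.253 in B16 residual and 0.128 in CT-26 residual, and a like split stood in the other pair, with 0.264 in B16 CTRL and 0.113 in CT-26 CTRL. The coding sequences of these genes differ at 1 of 444 bases in the mm10 annotation, so reads may be split between them, and the alleles of the beta globin locus are known to differ between mouse strains. Other genes among the largest ratios were Tspo2, a cholesterol and porphyrin binding protein of erythroid cells (215 and 2.38 CPM), Slc38a5, an amino acid transporter (102 and 0.574 CPM), Fam213a, a peroxiredoxin-like protein (log2 6.19), and Rhd (5.73). Antioxidant genes that red cells hold in quantity were also higher, with Prdx2, a peroxiredoxin, at 3021 and 118 CPM, Gpx1, glutathione peroxidase, at 12220 and 2284 CPM, and Blvrb, biliverdin reductase B, at 951 and 25.3 CPM. The ferritin chains Fth1 and Ftl1 stood at 1.15 and 1.32.

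**Figure D2:**
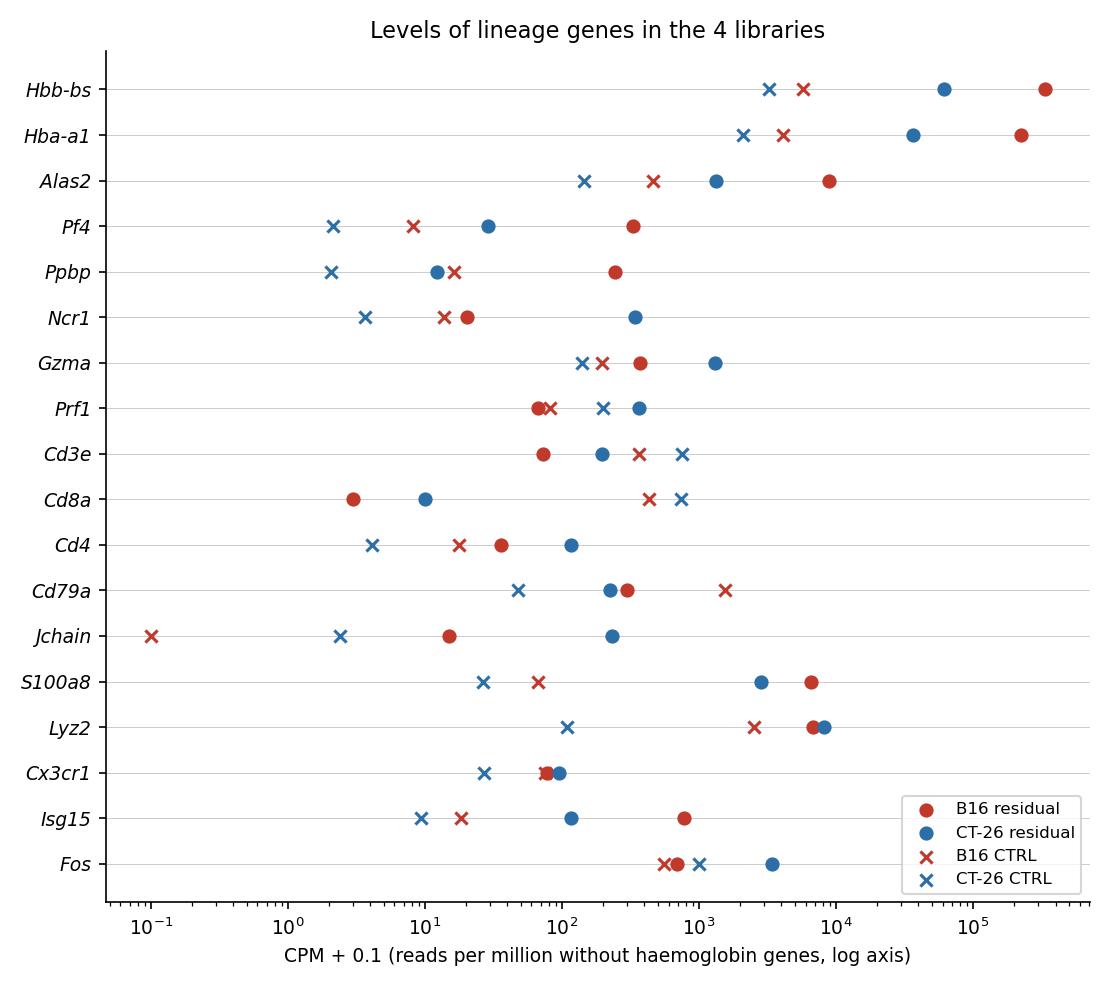
Levels of lineage genes in the 4 libraries, as CPM of reads without haemoglobin genes plus 0.1 on a log axis. Filled circles are the residual libraries and crosses the CTRL libraries, red for B16 and blue for CT-26. The red circle lies right of the blue one for the globins, Alas2, Pf4 and Ppbp, left of it for Ncr1, Gzma, Prf1, Cd3e, Jchain and Fos, and close to it for Lyz2 and Cx3cr1.

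Platelet genes were also higher in B16 residual. Of 24 listed, 23 had a read and 20 reached the level, of which 16 were higher and 0 lower, with a median of 2.82 over the 23. With haemoglobin reads kept, 14 of 18 were higher and 2 lower, and with the median ratio 18 of 21 were higher and 0 lower. Pf4, platelet factor 4, had 7430 reads in B16 residual and 1298 in CT-26 residual (3.51, 3.43 to 3.60), and Ppbp, the precursor of another alpha granule chemokine, 5494 and 554 (4.30). All 4 measured chains of the receptor for von Willebrand factor leaned the same way, with Gp9 at 4.56, Gp5 at 3.93 and Gp1bb at 3.48, while Gp1ba, at 1.92 with 165 and 84 reads, was below the level. The collagen receptor Gp6 had 273 and 4 reads, and Vwf itself, 1508 and 297 reads (3.32), was added after its value was seen. Thbs1, F13a1 and Rap1b, which monocytes also express, were not called, at -0.93, -0.69 and -0.04. Platelet and red cell lists thus leaned the same way in this pair, and Pf4 per haemoglobin read was 0.000453 in B16 residual and 0.000236 in CT-26 residual.

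Mitochondrially encoded RNA was higher in B16 residual in all 12 genes that reached the level, of 15 listed, with a median of 1.87 over the 15. Of the 12, 9 were higher and 0 lower with haemoglobin reads kept, and all 12 were higher with the median ratio. The large ribosomal RNA mt-Rnr2 had 221379 and 99179 reads (2.16), the small one mt-Rnr1 21329 and 8864 (2.27), and the messenger RNAs of respiratory chain subunits lay from 1.02 for mt-Co3 to 2.42 for mt-Nd4. Nuclear genes of the same chain differed less, with 6 of 25 higher, 0 lower and a median of 0.58. That median turns to -0.05, with 0 higher and 3 lower, when haemoglobin reads are kept, and 12 were higher with the median ratio. Of 79 genes of cytosolic ribosomal proteins, 27 were higher and 0 lower, with a median of 0.84, while 8 were higher and 1 lower with haemoglobin reads kept and 49 higher and 0 lower with the median ratio. Rpl29 (3740 and 217 reads) and Rpl26 (6473 and 954 reads) stood far above the rest at 5.08 and 3.76, and had like ratios of 4.02 and 3.34 in the CTRL pair.

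**Figure D3:**
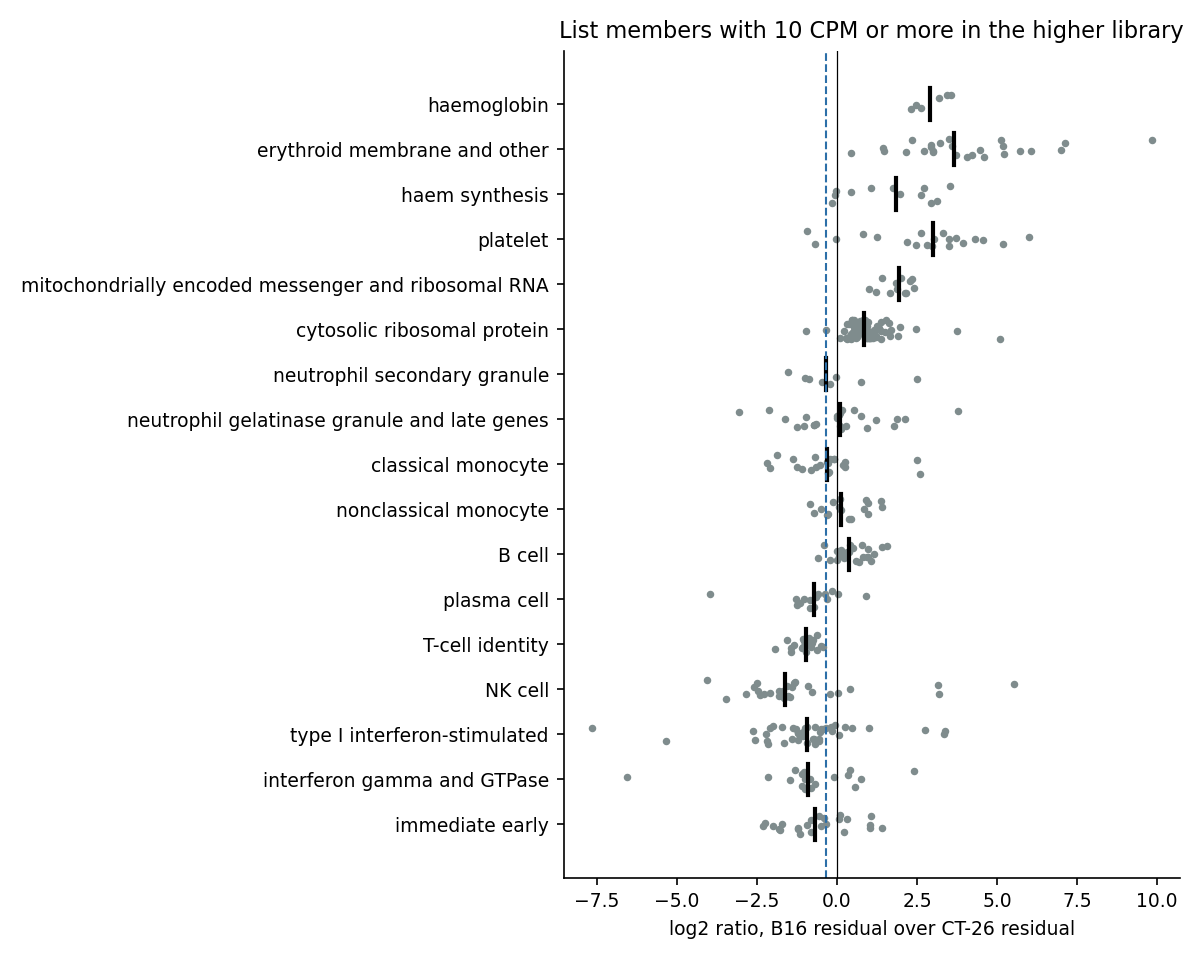
Log2 ratio of B16 residual over CT-26 residual for each list member with at least 10 CPM in the higher library (points) and the median of the list (black bar). The dashed blue line is the median over all genes at the level, -0.34. The haemoglobin, red cell, haem synthesis, platelet and mitochondrial lists lie to the right of it, and the NK cell list lies left of it, with a median of -1.61 over the plotted members.

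Genes of neutrophils and monocytes were called in both directions. Of 25 late neutrophil genes, 5 were higher and 5 lower, with a median of 0.08, and of 22 classical monocyte genes 2 were higher and 6 lower, with a median of -0.30. Nonclassical monocyte genes had 2 higher and 0 lower of 17, with a median of 0.14, and 14 of the 17 lay above the median of all genes at the level. The same held for 16 of 26 late neutrophil and 12 of 22 classical monocyte genes with a read. The signs of the 3 medians depended on the scale. Over the members at the level they ranged from -0.54 to 0.40 for late neutrophil genes, from -0.92 to 0.02 for classical and from -0.48 to 0.45 for nonclassical monocyte genes across the scales tried. Within the neutrophil list, members differed in direction. S100a8, a calcium-binding protein of neutrophil cytosol, had 148130 reads in B16 residual and 128530 in CT-26 residual (6537 and 2835 CPM), whereas its partner S100a9 had 158384 and 218316 (0.54, not called). Il1r2, the decoy receptor of interleukin 1, stood at 2.11, Retnlg at 1.78 and Wfdc21 at 1.86. Csf3r, the receptor of granulocyte colony-stimulating factor, stood at -1.26, Slfn4 at -1.62 and Cxcr2, a chemokine receptor, at -1.02. The secondary granule genes Ngp (-0.47) and Camp (-0.87) were not called, Ltf, lactoferrin, was lower (-1.53), and Chil3, a chitinase-like protein, was higher (2.50).

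Among monocyte genes, the pore-forming protein Mpeg1 had 3267 reads in B16 residual and 27956 in CT-26 residual (-2.10), and Ms4a6d 988 and 8961 (-2.18). Vcan, the proteoglycan versican, went the other way with 33.7 and 5.49 CPM (2.60). Lyz2 (-0.27), which neutrophils also express, Cd14 (-0.27) and Csf1r (-0.53), all on the classical monocyte list, were not called. Cebpb, a transcription factor of myeloid cells, had 352 and 1907 CPM (-2.44, -2.47 to -2.41), and Irf8, of monocytes and dendritic cells, 320 and 795 CPM (-1.31). Of 5 macrophage genes at the level, 3 were lower: Apoe (-1.14), the iron exporter Slc40a1 (-1.91) and Axl (-2.30). The complement genes C1qa, C1qb and C1qc were below the level in both libraries.

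NK cell genes were lower in B16 residual. Of 32 listed, 31 had a read and 28 reached the level, of which 20 were lower and 3 higher, with a median of -1.52 over the 31, and 22 or 19 were lower with haemoglobin reads kept or with the median ratio as the scale. Ncr1, the activating receptor NKp46, had 461 reads in B16 residual and 15421 in CT-26 residual (20.3 and 340 CPM, -4.06, -4.20 to -3.93). Klrg1, an inhibitory lectin-like receptor, stood at -3.46, S1pr5, which guides NK cells out of tissue, at -2.59, and the transcription factors Tbx21 and Eomes at -2.49 and -1.74. The cytotoxic proteins followed, with Prf1, perforin, at 67.0 and 367 CPM (-2.45), Gzmb at -2.10 and Gzma at 373 and 1308 CPM (-1.81). The 3 members higher in B16 residual were all Ly49 receptors, Klra8 (813 and 31 reads, 5.52), Klra4 (3.18) and Klra9 (3.14), a family of near-identical copies that differs between strains in gene content, and their kin Klra3 stood at -2.84. In the CTRL pair Klra8 had 450 reads in B16 CTRL and 0 in CT-26 CTRL, Klra4 450 and 2, and Klra9 208 and 6.

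T-cell genes were lower to a smaller degree. Of 20 identity genes, 9 were lower and 0 higher, with a range of -1.94 to -0.45 and a median of -0.98, and 20 or 5 were lower under the other pair of scales. Cd3e had 1659 reads in B16 residual and 8886 in CT-26 residual (73.2 and 196 CPM, -1.42, -1.50 to -1.35), the kinase Lck stood at -1.55 and the receptor constant gene Trac at -1.05. Of 14 genes of CD4 and regulatory T cells, 5 were lower and 2 higher, with a range of -2.52 to 1.34. Among the lower ones, Cd4 had 817 and 5280 reads (-1.69), Foxp3, the factor of regulatory cells, 76 and 770 (-2.31), and Cd40lg 150 and 1748 (-2.52). With haemoglobin reads kept, 8 of 11 were lower and 0 higher. Among 24 effector and memory genes, 13 were lower and 1 higher, and several of these, such as Gzma, Prf1 and Klrg1, are shared with the NK list. Gzmk had 2 reads in B16 residual and 482 in CT-26 residual. Set against Cd3e, Ncr1 was 0.278 in B16 residual and 1.74 in CT-26 residual, so the NK gene differed beyond what the T-cell gene did.

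B-cell genes did not follow T and NK genes. Of 26, 4 were higher in B16 residual and 0 lower, with a median of 0.39, which is 0.70 with 9 higher and 0 lower with the median ratio as the scale, and -0.23 with 0 higher and 2 lower with haemoglobin reads kept. The transcription factor Pax5 stood at 1.40, the adaptor Bank1 at 1.17 and H2-Ob, of class II peptide exchange, at 1.56. Cd79a, a chain of the B-cell receptor complex, had 6731 and 10136 reads (0.41). The CTRL pair differed far more in these genes, with all 26 higher in B16 CTRL and a median of 4.57.

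Antibody genes separated the libraries by class. The constant genes of IgG and IgA together held 5.76% of heavy-chain constant reads in B16 residual and 57.5% in CT-26 residual, while Ighm, the IgM chain, held 73.9% and 36.4%. The CTRL pair leaned the same way at a far lower share, with IgG and IgA at 0.165% in B16 CTRL and 3.01% in CT-26 CTRL. Ighg1 (chromosome 12, 113325240 to 113330523) had 25 reads in B16 residual and 22049 in CT-26 residual (-8.66), and Igha 1410 and 25808 (-3.19), whereas Ighm itself stood at 0.25 and was not called. Jchain, the joining chain of secreted polymeric antibody, had 336 and 10491 reads (-3.96), and per read of Cd79a it stood at 0.0499 and 1.04. Of 15 plasma cell genes at the level, 5 were lower and 0 higher, among them the endoplasmic reticulum proteins Txndc5, Pdia4 and Sdf2l1 between -1.27 and -1.16. With haemoglobin reads kept, 10 of the 15 were lower, and with the median ratio 1 was lower and 1 higher, so these 3 then missed the 2-fold size. Xbp1, which drives antibody secretion, was not called (-0.16), while Derl3 (8 and 420 reads) and Tnfrsf17 (11 and 259) were below the level. All 19 called variable segments of 27 at the level were lower, with 20 and 1052 reads of Igkv3-12 as the largest ratio. The light chains also differed, with 0.442 lambda reads per kappa read in B16 residual and 0.172 in CT-26 residual. Immunoglobulin copies are alike and constant gene content differs between strains, so values of single genes, Ighg2c among them, are uncertain.

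**Figure D4:**
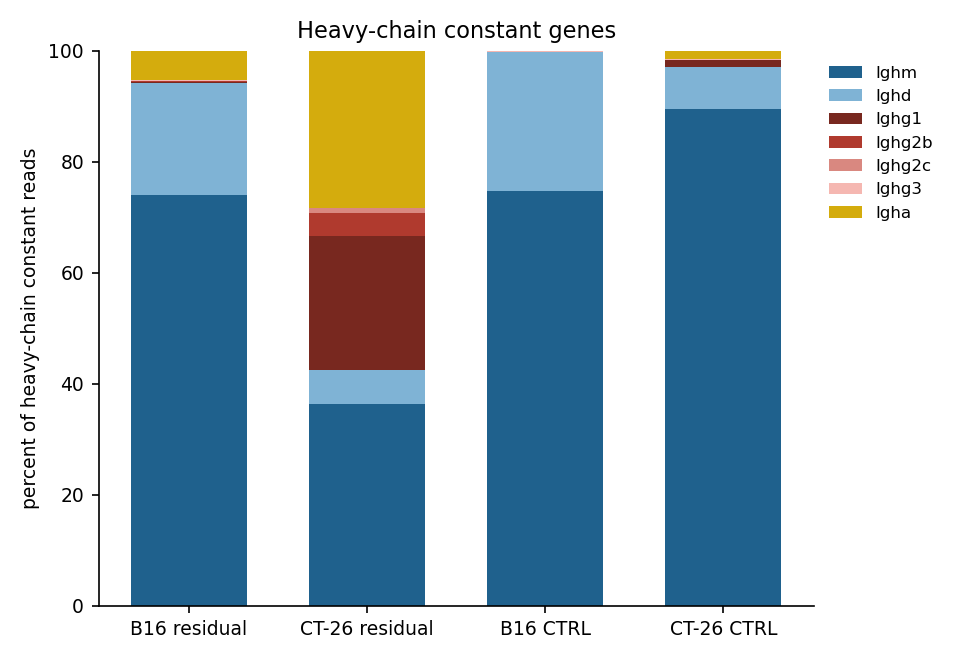
Percent of heavy-chain constant reads (vertical axis, stacked bars) taken by each constant gene in the 4 libraries. IgG and IgA genes held 57.5% in CT-26 residual, against 5.76% in B16 residual, while IgM held most reads in B16 residual and in both CTRL libraries.

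Interferon-stimulated genes split between members. Of 44 in the type I list, all at the level, 20 were lower in B16 residual and 4 higher, with a median of -0.92. The lower ones held the sensors and effectors Oas2 (-1.73), Oasl1 (-2.10), Mx2 (-2.20), Ifit2 (-2.18) and the regulator Irf7 (-1.29), and at the extreme Ifi44 (62 and 5222 reads) and Ifi44l (2 and 1720). In the fit over all 4 libraries described below, B16 over CT-26 had a log2 of -2.77 for Ifi44 and -8.53 for Ifi44l. That fit includes the residual pair, so its values are not separate support for the ratios of this pair. Whether a difference between models or in interferon response lies behind these ratios was not tested. The 4 higher were Rsad2, viperin, with 103294 and 20463 reads (4558 and 451 CPM, 3.34), Isg15, a ubiquitin-like modifier (2.76), Ly6a (3.37) and Oasl2 (1.01). The enzyme Ube2l6, which attaches Isg15 to its targets and stood in the red cell list, was at 2.33. With haemoglobin reads kept, 33 of 43 were lower and 3 higher, and with the median ratio as the scale 13 were lower and 4 higher. Of 18 genes of the interferon gamma and GTPase list, 8 were lower and 1 higher, led by Gbp2b (12 and 2680 reads, -6.56), and Serpina3g was the one higher (2.41). The counts were 12 lower and 1 higher with haemoglobin reads kept, and 3 lower and 2 higher with the median ratio.

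Immediate early genes, which are switched on within minutes by many signals, were lower in B16 residual in 9 of 24 and higher in 4, with a median of -0.68. With haemoglobin reads kept, 15 of 23 were lower and 0 higher, and with the median ratio 6 were lower and 4 higher. Fos had 15641 reads in B16 residual and 154251 in CT-26 residual (690 and 3403 CPM, -2.30), the phosphatase Dusp1 stood at -2.25, Egr1 at -1.98, Jun at -1.82 and Zfp36, which binds AU-rich messenger RNA, at -1.78. The higher ones, Nr4a3, Klf4, Egr3 and Cd69, lay between 1.04 and 1.42 and lost their calls with haemoglobin reads kept. In the inflammasome and interleukin 1 list, Ptgs2 stood at -2.43, Il1b at -0.66 and Tnf at 1.83.

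Cell cycle genes gave no single direction. Of 15 at the level, 6 were higher and 2 lower: Ube2c, which tags mitotic proteins, had 7311 reads in B16 residual and 898 in CT-26 residual (4.02), the spindle protein Nusap1 2142 and 551 (2.95) and Mki67 2001 and 922 (2.11). The mitotic kinases and cyclin that usually accompany them were scarce and leaned the other way, with 13 and 203 reads of Cdk1, 28 and 244 of Ccnb1 and 24 and 190 of Plk1, all below the level. With haemoglobin reads kept, 3 of the 15 were higher and 5 lower, against 294 higher and 4359 lower of all 8891 genes at the level. Heat shock genes, with 0 called of 12, lay between -0.68 and 0.91, and 6 were lower with haemoglobin reads kept and 2 higher with the median ratio. Genes that mark the tumours themselves were scarce. In the melanocyte list, Pmel had 323 reads in B16 residual and 368 in CT-26 residual and Mitf, which myeloid cells also use, 108 and 471, while Tyr and Dct had 12 and 35 reads in B16 residual and 0 in CT-26 residual. Krt8, a keratin of epithelium, had 1 and 0 reads and Epcam 64 and 35, and Col1a1 of fibroblasts had 69 and 0. These low counts stand beside the low-level reads of B16 residual described above, and their part was not tested.

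Of 20 listed genes known to differ between C57BL/6 and BALB/c mice, 11 were called in the residual pair, and of these 7 were called in the same direction in the CTRL pair, 1 in the opposite one and 3 not called. The called ones include the beta globins Hbb-bs and Hbb-bt, which were higher in B16 residual as were the alpha globins. For these, strain and haemoglobin content cannot be told apart. H2-Ea-ps (chromosome 17, 34341959 to 34344645), the class II alpha E gene that is broken in C57BL/6, had 0 reads in B16 residual and 15652 in CT-26 residual, at least 2608-fold lower, and 15 and 3530 in B16 CTRL and CT-26 CTRL. H2-Aa, the alpha chain of the other class II molecule, which both strains use, had 742 and 733 CPM in the residual pair. Ly6a, which encodes Sca-1, stood at 3.37 and at 2.62 in the CTRL pair, and Ly6c1 at -2.54 and -3.62. Gbp2b stood at -6.56 and -7.64, and H2-Q7, H2-Q4 and H2-Q2, class Ib genes with alike copies that are not on this list, at 3.12, -2.78 and -5.49, with 4.22, -3.69 and -5.34 in the CTRL pair. Nnt, which lacks exons in C57BL/6J, had only 37 and 49 reads in the residual pair. The X-linked RNA Xist had 123 and 104 CPM, and 4 Y-linked genes had 0 to 2 reads in each residual library.

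Among genes of known name at 50 CPM or more, the largest ratios outside the lists were, beside Slc38a5, Tspo2 and Fam213a, those of Ankrd36 (1292 and 0 reads, at least 861-fold higher), Trim12a (2221 and 33, 6.89), Apol11b (5.65) and Gstm5 (5.39). The ratios furthest below 0 outside the lists were, beside H2-Q2, those of Colec12, a scavenger receptor (2 and 3507 reads, -8.68, -12.82 to -7.92), Alpk1, a kinase that senses a bacterial sugar (-5.35), Tpm3-rs7 (-5.35), Gatm, of creatine synthesis (-4.55), H2-Q1 (-4.35) and Rhpn1 (-4.06). Of these, Trim12a (9.19), Apol11b (5.14), Tpm3-rs7 (-4.86) and H2-Q1 (-4.30) were called in the same direction in the CTRL pair. Ankrd36, Gstm5, Colec12, Alpk1, Gatm and Rhpn1 were below 10 CPM in that pair and not called. Of these, Ankrd36, with 17 reads in B16 CTRL and 1 in CT-26 CTRL, and Gatm, with 0 and 37, leaned the same way as in the residual pair. Alpk1 (1.07) and Rhpn1 (2.40) leaned the opposite way. Gstm5, with 14 and 36 reads in libraries of unequal depth, and Colec12 (0.09) had ratios near 0. Tpm3-rs7 and Rpl29 are copies in gene families, so their reads may be shared with others. Tpm3, the parent form, stood at 0.36.

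The CTRL pair showed how much of the difference between models was present in both populations. Of 439 genes higher in B16 residual and at the level in both pairs, 171 (39.0% of them) were also higher in B16 CTRL and 21 lower, against 11.6% higher among all 8604 genes at the level in both. Of 1327 lower genes, 337 (25.4%) were also lower in B16 CTRL and 97 higher, against 9.22% lower among all. Most calls of the residual pair were thus not calls of the CTRL pair. In the CTRL pair, 8 of 13 red cell membrane and other genes at the level, 2 of 4 haemoglobin genes, 3 of 12 haem synthesis genes and 6 of 7 platelet genes were higher in B16 CTRL and 0 lower in each list. Alas2 had 465 CPM in B16 CTRL and 145 in CT-26 CTRL, and Pf4 8.07 and 2.03, which is below the level. The platelet list also holds Thbs1, F13a1 and Rap1b, which monocytes express as well. Their part in the platelet count of the CTRL pair was not tested. The classical monocyte list had a median of -0.30 in the residual pair and 2.72 in the CTRL pair, a difference that was not tested.

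**Figure D5:**
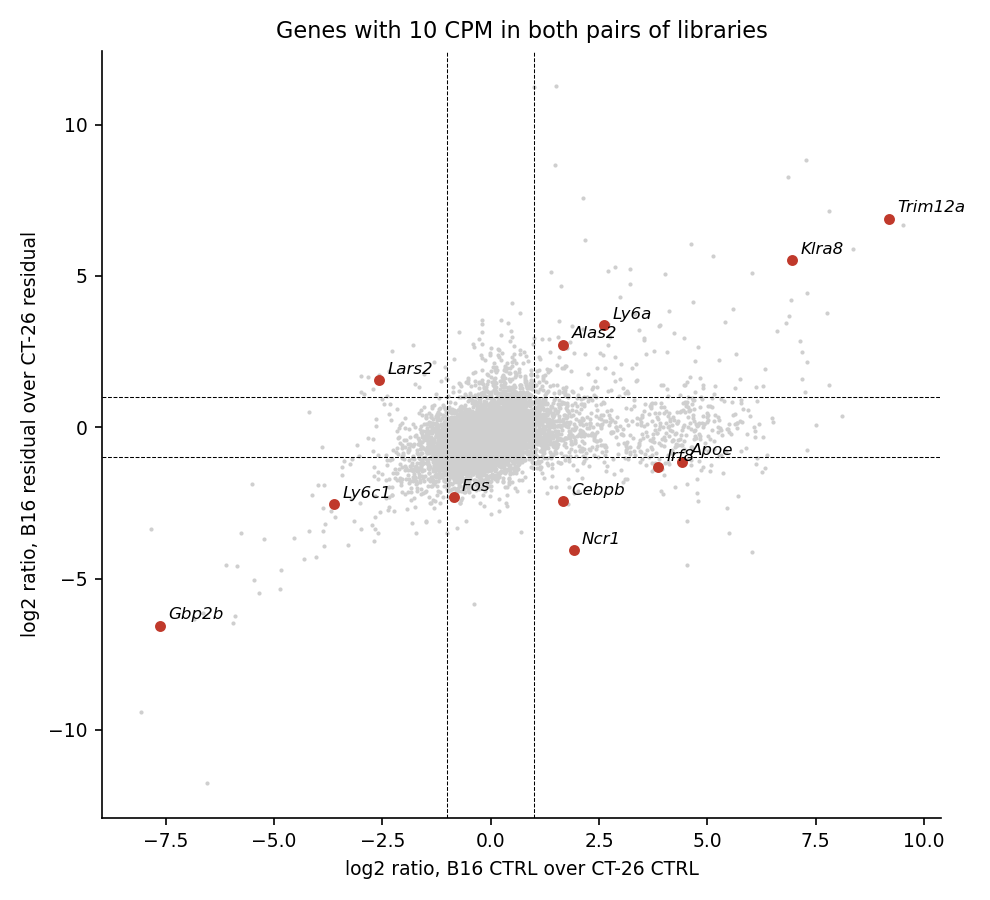
Log2 ratio of B16 residual over CT-26 residual (vertical axis) against that of B16 CTRL over CT-26 CTRL (horizontal axis) for the genes at 10 CPM in both pairs, with named genes in red and dashed lines at 2-fold. Trim12a, Klra8 and Ly6a lie high in both pairs and Gbp2b and Ly6c1 low in both, whereas Ncr1, Irf8, Apoe and Cebpb are lower in B16 residual and higher in B16 CTRL.

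A fit over all 4 libraries, with population as a term and 1 residual degree of freedom, estimated a single difference between models over both populations. It does not require a gene to differ in each of them. Adgre1, for instance, had a fitted log2 of 3.29, with 0.59 in the residual pair and 5.83 in the CTRL pair. By edgeR's quasi-likelihood test with Benjamini-Hochberg adjustment, 0 of 18749 genes passed an adjusted p of 0.05 (0%). The smallest adjusted p was 0.358, and 1572 genes had an unadjusted p under 0.05, of which 726 were higher and 846 lower in B16. DESeq2's Wald test called 442 higher and 226 lower of 17960 genes (3.72%), and edgeR without a filter on low counts called 110 higher and 93 lower of 40101. Genes with the smallest edgeR p included H2-Q2 (fitted log2 -5.42), Tspan33, a tetraspanin of red cell precursors (5.47), Ighg1 (-8.84), Apol11b (5.48) and Eno1b (-3.85), and each had an edgeR adjusted p of 0.358. The calls of this fit therefore rested on the tool. Its residual spread is how far the ratio between models differs between the populations. With single libraries, such a difference and technical spread cannot be told apart.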

How the data were processed

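RNA from mouse blood cells was made into libraries with a SMART-Seq v4 ultra-low input kit, per the labels' protocols. Reads were aligned with STAR 2.7.3a to mm10 and counted with HTSeq 0.11.2, and DESeq2 was run, per the submitters' processing notes (whether strand was used was not stated there). The authors deposited raw counts per gene in 2 tables, 1 per model, which were joined by gene ID. Sample columns without a matching label numbered 0.

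CPM was taken over reads without the 11 haemoglobin genes, with a pseudocount of 0.1 CPM. With 1 library a side, a gene was called at 2-fold and 10 CPM in the higher library. Bounds in fold use a floor of 3 reads per library. The 4-library fit used edgeR 4.0.16 (quasi-likelihood, TMM, filterByExpr) and DESeq2 1.42.0 in R 4.3.3, with an adjusted p of 0.05. Its edgeR form was tried on simulated data with less spread between libraries, at a dispersion below the 0.36 fitted here. That trial therefore does not show how the fit performs on these libraries. P-values of the 4-library fit measure only the spread between these samples. In that spread, technical differences and a ratio between models that differs between populations cannot be told apart. Intervals were computed with scipy 1.17.1.

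Named genes were the 10 with the largest ratios each way at 50 CPM, leaving out haemoglobin, predicted, pseudogene and receptor segment names, up to 4 by level and 4 by ratio per list, the genes of within-library ratios, those apart in both pairs, and genes added after their values were seen. The libraries, lists and rules were chosen with earlier results of these data known. Of 795 listed members, 19 matched no gene. Gene positions matched for 99.7% of 53801 IDs. Near-identical genes (globins, Klra, immunoglobulin, H2-Q) may share reads. Alternatives were 6 other scalings, 2 of them chosen after seeing the data, 2 pseudocounts, 3 levels, 4-fold and protein-coding genes only, and 5 other fits. A few listed genes are not reported here by name.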

Additional observations from a re-analysis of the deposited data

Results flagged for a closer look

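The ratio of B16 over CT-26 had opposite signs in the residual and the CTRL pair, with a call in each, for 14 of the named genes. Each group is 1 library, so the difference between the pairs was not tested. The count rests on the scale of the residual pair: 9 of the 14 met the rule with the median of ratios, where Cxcr2, Apoe, Cd209a, Csf3r and Irf8 missed the 2-fold size, 13 with haemoglobin reads kept, which added 12 other named genes, 13 with TMM and 13 without red cell and repeat-type genes. In 12 of the 14 the gene was lower in B16 residual and higher in B16 CTRL. Among these, the NK receptor Ncr1 had a log2 ratio of -4.06 in the residual pair and 1.91 in the CTRL pair. Of myeloid genes, Cebpb stood at -2.44 and 1.66, Ms4a6d at -2.18 and 1.92, Mpeg1 at -2.10 and 2.02, Csf3r at -1.26 and 1.31, and Cxcr2 at -1.02 and 1.29. Irf8 stood at -1.31 and 3.87, the dendritic cell lectin Cd209a at -1.21 and 4.11, and Apoe, of lipid transport, at -1.14 and 4.42. Cd4 stood at -1.69 and 2.10, the immediate early factor Egr1 at -1.98 and 1.51, and the zinc finger factor Zbtb32 at -1.98 and 1.81.

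The remaining 2 genes were higher in B16 residual and lower in B16 CTRL. The mitochondrial ribosomal RNA mt-Rnr2 stood at 2.16 and -1.31, and Lars2, a mitochondrial transfer RNA synthetase, at 1.56 and -2.58. Lars2 had 107243 reads in B16 residual and 72604 in CT-26 residual. Lyz2, which was not called in the residual pair (-0.27), was higher in B16 CTRL (4.51), as were all 26 B-cell genes.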

How the results depend on the processing

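No paired analysis was possible because the labels give no replicate numbers and each group is 1 library, so the fit over both populations carried the population as a term instead. The 695 higher and 1500 lower genes of the residual pair became 294 and 4359 with haemoglobin reads kept in the total, 1084 and 717 with the median of ratios over genes at 10 CPM in both libraries, 2879 and 2612 at a level of 1 CPM, 372 and 647 at 50 CPM, 12452 and 3717 with no level, and 282 and 215 at 4-fold. Under the other 7 settings both counts stayed within 1.5 times. Over both populations, the 0 calls of edgeR became 442 higher and 226 lower with DESeq2's Wald test and 110 and 93 with no filter on low counts, and stayed 0 under the other 3 fits, the one with no population block included. Of the 174 called named genes, 29 lost the call with haemoglobin kept, 19 with the median of ratios, 13 with TMM and 5 without red cell and repeat-type genes, while 46, 15, 4 and 4 other named genes gained one. A change of sign was not possible for them, since the scalings shift all genes alike by less than the 2-fold size. Restricting lists to members at 10 CPM turned the median of the melanoma list to -0.15, of the epithelial list to -0.54 and of the stromal list to -0.42, against 1.03, 1.18 and 1.27 over all members with a read. Those lists kept 2, 2 and 1 members at that level. The medians of 4 more lists changed sign, to -0.60 for gamma delta T cells, -0.55 for B cell subsets, 0.09 for the cell cycle and 0.02 for myeloid growth factor response, against 0.89, 0.00098, -0.33 and -0.33. Depth limits what can be seen of Cd8a in B16 residual, at 65 reads, and of any gene under 227 reads there. For the counts that moved by more, the cause was not tested.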
